A study of Homo sapiens with 12 samples.

Results

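The genes described here are 41 genes of the integrated stress response and of the unfolded protein response, chosen by name. The choice drew on general knowledge of these pathways and was made with earlier results of these data known. Shares of these genes beside all genes tested are therefore not an independent test. Each of the 41 genes matched 1 of the 58735 lines of the count table. They form an ATF4 arm of 23 genes and an endoplasmic reticulum (ER) arm of 18 genes. Polyadenylated RNA was sequenced from the established human lines CAL-27 and SCC-15, both from oral squamous cell carcinoma, with a control hairpin (shControl) or a short hairpin RNA against TTK (shTTK), the kinase of the mitotic spindle checkpoint. The 4 groups of 3 libraries each were CAL-27 shControl, CAL-27 shTTK, SCC-15 shControl and SCC-15 shTTK. The labels give the genotype as WT for the control cells and as TTK knockdown for the others, with all cells untreated and in batch 1. They do not say which hairpin was used, whether a group was a clone or a pool, or whether replicates were separate cultures, so p-values measure only the spread between these libraries, which may be technical.

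In the integrated stress response, kinases that sense stress phosphorylate the initiation factor eIF2, which slows most translation but increases translation of ATF4, a transcription factor. ATF4 switches on enzymes that make serine and asparagine, mitochondrial folate enzymes, aminoacyl-tRNA synthetases, and feedback regulators such as TRIB3 and PPP1R15A. In the unfolded protein response, the ER sensors PERK (EIF2AK3), IRE1 (ERN1) and ATF6 respond to misfolded protein. PERK acts through eIF2 and ATF4, while XBP1, once spliced by IRE1, and cleaved ATF6 raise ER chaperones and the machinery that degrades misfolded proteins. Levels of total messenger RNA do not show translation of ATF4, splicing of XBP1 or cleavage of ATF6.

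Promoters of 4 genes are shown because these genes carry a motif of either arm and recur in the results. Each is the 250 bases before the RefSeq start on GRCh38.p14, written 5′ to 3′ on the gene's strand. Capitals mark a match, on either strand, to the C/EBP-ATF response element core TGATGNAA, to the ER stress response element (CCAAT, any 9 bases, CCACG), or to its second form (ATTGG, any base, CCACG). HERPUD1 was read at chr16:56931892-56932141 (plus strand) and HSPA5 at chr9:125241344-125241593 (minus strand). SDF2L1 was read at chr22:21642052-21642301 (plus strand) and XBP1 at chr22:28800570-28800819 (minus strand).
HERPUD1: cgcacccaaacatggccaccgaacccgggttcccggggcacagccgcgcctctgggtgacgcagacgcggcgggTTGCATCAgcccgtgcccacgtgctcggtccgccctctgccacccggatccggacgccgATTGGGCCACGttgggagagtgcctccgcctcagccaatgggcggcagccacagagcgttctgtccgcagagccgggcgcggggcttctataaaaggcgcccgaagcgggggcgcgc
HSPA5: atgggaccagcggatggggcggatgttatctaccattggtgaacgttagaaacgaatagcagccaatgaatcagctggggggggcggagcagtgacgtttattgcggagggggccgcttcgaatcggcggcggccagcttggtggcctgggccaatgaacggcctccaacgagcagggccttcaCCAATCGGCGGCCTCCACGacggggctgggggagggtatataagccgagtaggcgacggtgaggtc
SDF2L1: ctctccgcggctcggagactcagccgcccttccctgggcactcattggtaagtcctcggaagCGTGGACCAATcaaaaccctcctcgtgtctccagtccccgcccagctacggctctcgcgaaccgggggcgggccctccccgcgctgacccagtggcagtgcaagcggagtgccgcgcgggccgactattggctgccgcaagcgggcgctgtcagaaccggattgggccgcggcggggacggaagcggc
XBP1: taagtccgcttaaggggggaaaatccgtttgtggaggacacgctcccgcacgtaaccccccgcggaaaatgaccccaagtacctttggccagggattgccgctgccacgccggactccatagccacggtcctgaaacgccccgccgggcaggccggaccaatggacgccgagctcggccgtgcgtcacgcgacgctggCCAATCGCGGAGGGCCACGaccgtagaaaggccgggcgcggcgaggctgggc

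A RefSeq promoter was matched for 37 of the 41 genes, 5 of them through an older symbol; NUPR1, PSPH, SHMT2 and ALDH1L2 had no entry. The core TGATGNAA was found in 3 of 19 promoters of the ATF4 arm (ASNS among them) and in 1 of 18 of the ER arm (HERPUD1), beside 3.14% of all 35116 promoters of that length. The ER stress response element was found in 4 of 18 promoters of the ER arm (HSPA5, HSP90B1, CRELD2 and XBP1) and in 0 of 19 of the ATF4 arm, beside 0.074% of all. Its second form was found in 2 promoters of the ER arm (SDF2L1 and HERPUD1) and 0 of the ATF4 arm, beside 0.0513% of all. HERPUD1 had letters of both kinds, TTGCATCA from 176 to 169 bases and ATTGGGCCACG from 117 to 107 bases before its start. A further motif, TGACGTGG, was found in 0 promoters of the members and in 0.612% of all. No matches overlapped each other, and a match describes letters only.

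Total counts per library were between 16176655 and 18484112, and all 41 genes were among the 16946 that passed the filter on low counts. Levels are given as CPM, counts scaled to the library total, with trimmed mean of M-values (TMM) factors. TTK was at 46.4, 48.4 and 53.4 CPM in the CAL-27 control libraries and 35.6, 32.5 and 33.5 CPM with shTTK, and at 67.5, 69.4 and 72.9 CPM against 26.9, 29.2 and 34.3 CPM in SCC-15. Every shTTK library thus lay below every control of its line. The fall of TTK was smaller in CAL-27. Over fits without 1 library its log2 fold change was -0.59 to -0.49 in CAL-27 and -1.32 to -1.13 in SCC-15. The 8 squamous epithelial markers summed to 2077 to 2229.5 CPM in CAL-27 control and 3978 to 4019 CPM in CAL-27 shTTK libraries, and to 6591 to 6859.6 against 5892 to 5969 CPM in SCC-15, with 0 of them at 0. By group means, 5 of them ran with the sum, higher with shTTK in CAL-27 and lower in SCC-15, KRT17 was higher in both lines, and CDH1 and EPCAM were lower in CAL-27 and higher in SCC-15. The 5 leukocyte markers summed to at most 0.710 CPM. The 4 endothelial markers summed to 102 to 109.7 CPM in CAL-27 control and 72.4 to 74.3 CPM in CAL-27 shTTK libraries, mainly CDH5, with KDR at 0, and to 1.47 to 1.95 and 1.52 to 2.25 CPM in SCC-15. The 5 fibroblast markers, mainly COL1A1, summed to 28.5 to 34.9 against 38.8 to 39.4 CPM in CAL-27 and 21.1 to 22.95 against 20.6 to 22.7 CPM in SCC-15. The part of these marker shifts in the results was not tested, and in bulk RNA fewer cells of a type and less RNA per cell cannot be told apart. The SCC-15 libraries numbered 1 stood apart by the mean chi-square per gene, which was 5.62 and 5.96 between control library 1 and the others and 1.98 between those. The corresponding shTTK values were 3.07, 3.79 and 1.95. By the median, as a ratio to counting error, the controls gave 1.92, 2.11 and 1.76, and the shTTK libraries 2.195, 2.63 and 1.77. In CAL-27 this median was 2.07 to 2.14 in control pairs and 1.94 to 2.02 in shTTK pairs. The medians of SCC-15 control library 1 lay above that of the other SCC-15 control pair, but not above the highest of CAL-27 control pairs. Those of SCC-15 shTTK library 1 lay above the other SCC-15 shTTK pair and above every CAL-27 shTTK pair.

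With shTTK in CAL-27, most called genes of the ATF4 arm were higher, by small amounts, while the ER arm was split. In the ATF4 arm 13 of 23 genes rose, 2 fell and 8 were not called (edgeR quasi-likelihood test, Benjamini-Hochberg adjusted p under 0.05), beside 11.6% of all genes tested called higher and 15.7% lower (27.3% in either direction). In the ER arm 6 of 18 rose, 7 fell and 5 were not called. The median log2 fold change was 0.15 in the ATF4 arm and -0.10 in the ER arm, beside -0.010 over all genes tested. Without CAL-27 control library 2 these medians were 0.23 and -0.054, and without CAL-27 shTTK library 1 the ER-arm median was -0.058. The libraries of both groups did not overlap for 14 genes higher and 2 lower in the ATF4 arm, and for 6 higher and 8 lower in the ER arm, beside 17.1% and 21.3% of all genes tested (38.4% in either direction).

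In SCC-15, 10 genes of the ATF4 arm rose, 4 fell and 9 were not called, beside 13.4% of all genes tested called higher and 14.3% lower (27.7% in either direction). In the ER arm 5 rose, 3 fell and 10 were not called; 1 fell when SCC-15 control library 2, SCC-15 shTTK library 1, or both libraries numbered 1 were left out. The median log2 fold change was 0.15 in the ATF4 arm and 0.065 in the ER arm. The ATF4-arm median was 0.091 without SCC-15 shTTK library 2. The ER-arm median was 0.025 or 0.11 when control library 1 or 2 was left out, 0.035 or 0.11 when shTTK library 1 or 2 was, and 0.0044 without both libraries numbered 1. Libraries did not overlap for 13 genes higher and 5 lower in the ATF4 arm and for 5 higher and 5 lower in the ER arm, beside 19.3% and 19.6% of all genes tested (38.9% in either direction).

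**Figure D1:**
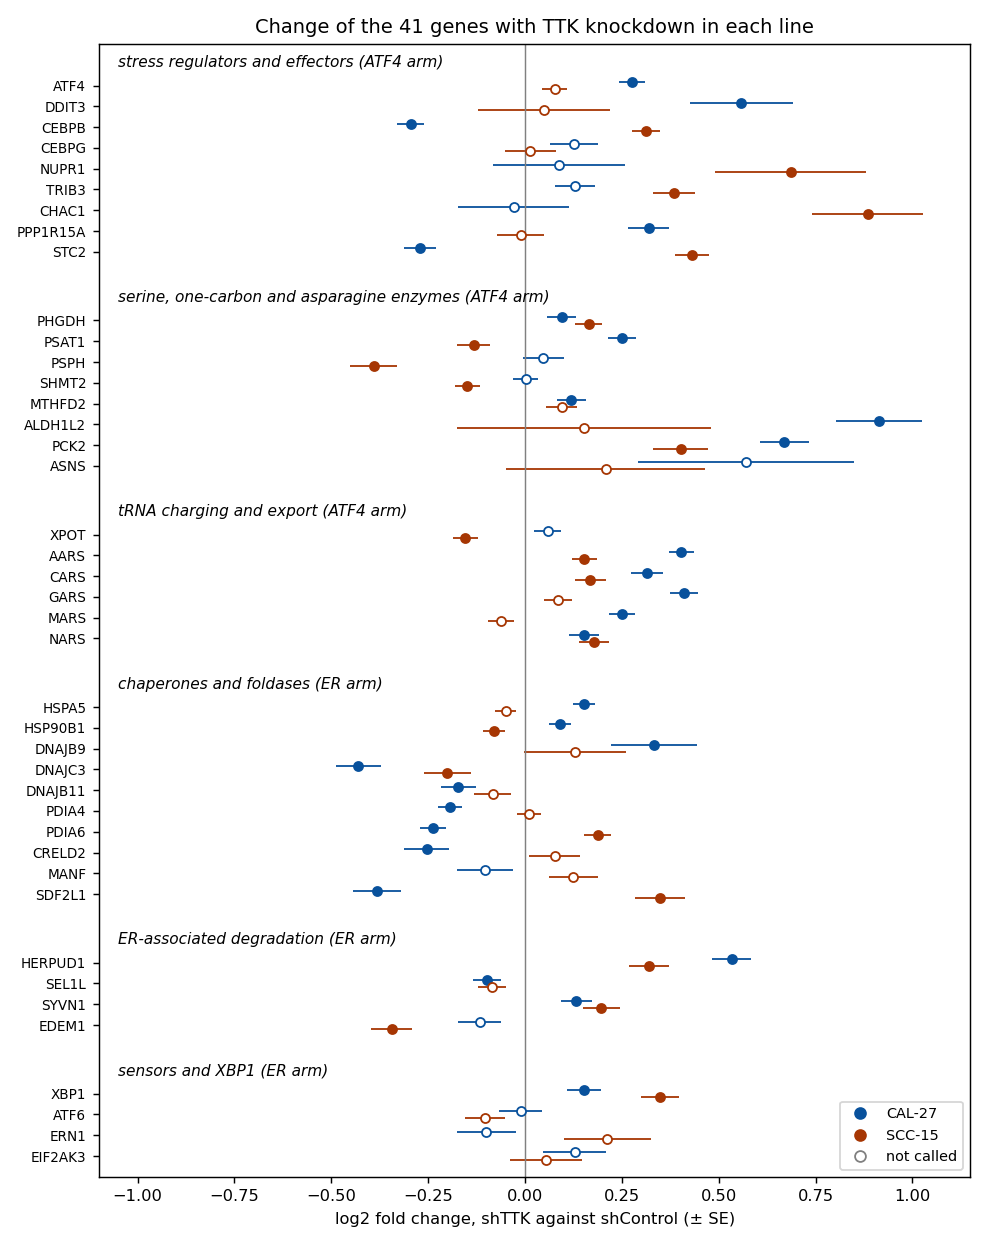
Log2 fold change (x axis, shTTK against shControl) of each of the 41 genes (y axis, grouped by role) with its standard error, in CAL-27 and SCC-15; open points were not called at an adjusted p under 0.05. ALDH1L2 (0.91) and PCK2 (0.67) lie farthest right in CAL-27 and CHAC1 (0.88) and NUPR1 (0.69) in SCC-15, while SDF2L1, PDIA6, CEBPB and STC2 lie left of 0 in CAL-27 and right of 0 in SCC-15.

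The mean log2 level over an arm was also set relative to the control mean of the line, library by library. For the ATF4 arm it was -0.018, 0.024 and -0.0059 in the CAL-27 control libraries and 0.28, 0.16 and 0.21 with shTTK, without overlap. For the ER arm it was 0.022, 0.0056 and -0.028 in control and -0.039, -0.037 and -0.018 with shTTK, and the groups overlapped. This mean joined role means of opposite sign. The mean of the chaperones and foldases was lower with shTTK (-0.13 to -0.10 against -0.055 to 0.0365 in control). The means of the degradation genes (0.090 to 0.12 against -0.028 to 0.020) and of the sensors with XBP1 (0.039 to 0.052 against -0.011 to 0.0080) were higher. None of these role means overlapped its controls. Each role mean in turn joined log2 fold changes of both signs. In CAL-27, 3 of the 10 chaperones and foldases were called higher and 6 lower. Of the 4 degradation genes 2 were called higher and 1 lower, with a median log2 fold change of 0.017. Of the 4 genes of the sensors with XBP1, only 1 was called, XBP1 itself. In SCC-15 the ATF4 arm was at -0.012, -0.0050 and 0.017 in control and at 0.14, 0.14 and 0.14 with shTTK. The ER arm was at -0.011, 0.0028 and 0.0078 and 0.059, 0.041 and 0.074, and neither arm overlapped its controls in SCC-15. The ATF4 arm exceeded the ER arm in every shTTK library, by 0.32, 0.20 and 0.23 in CAL-27 and by 0.085, 0.10 and 0.062 in SCC-15. Within the ATF4 arm the roles differed by line. In CAL-27 the enzymes (0.28 to 0.38) and the tRNA genes (0.21 to 0.30) lay above their controls with shTTK. The stress regulators overlapped theirs (0.021 to 0.18 against -0.0295 to 0.054). In SCC-15 the stress regulators (0.29 to 0.31) and the tRNA genes (0.053 to 0.0725) lay above their controls. The enzymes overlapped theirs (0.0062 to 0.0345 against -0.051 to 0.046). The share of counts from mitochondrial genes did not overlap between the groups of either line. In CAL-27 it lay between 4.24% and 4.32% in control and between 4.47% and 4.68% with shTTK, and in SCC-15 between 2.94% and 3.86% in control and between 2.35% and 2.69% with shTTK. SCC-15 control library 1 was the highest of that line, beside 3.01% and 2.94% in the other controls. The part of this share in the changes of either arm was not tested.

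**Figure D2:**
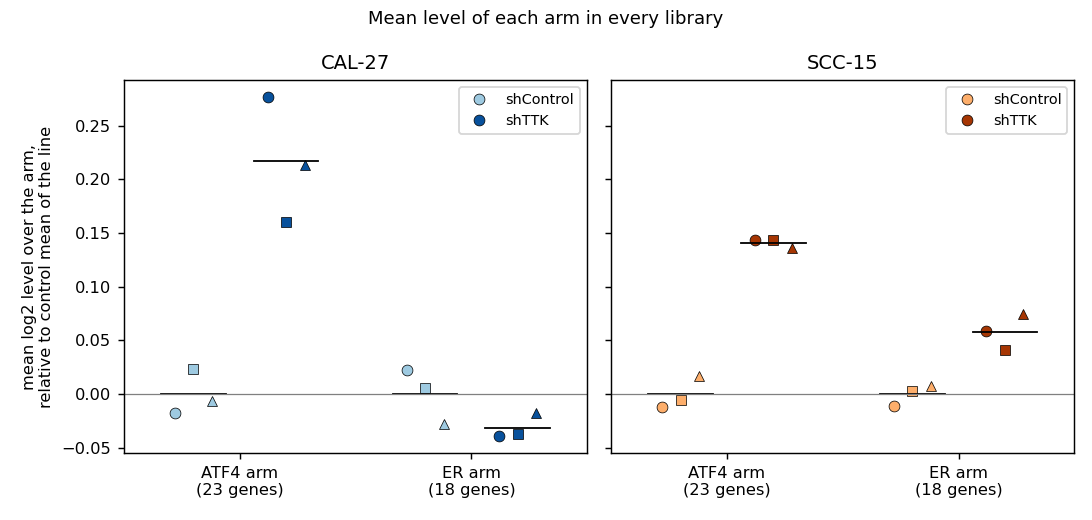
Mean over the genes of each arm of log2(CPM + 0.5), relative to the mean of the 3 control libraries of the line (y axis), by group (x axis); markers are libraries and bars are group means. The ATF4 arm lies above its controls in both lines, and the ER arm overlaps its controls in CAL-27 and lies above them in SCC-15.

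ATF4 itself (chromosome 22, 39519695 to 39522685, plus strand, GRCh38) was at 267, 269 and 269.6 CPM in the CAL-27 control libraries and 331, 308 and 337 CPM with shTTK. Every shTTK library was above every control, a log2 fold change of 0.28 ± 0.033 (SE, edgeR adjusted p = 6.37e-11). In SCC-15 it was at 372, 371 and 374 CPM in control and 402, 393 and 382 CPM with shTTK. These groups did not overlap either, but the change was not called (0.077 ± 0.032, edgeR adjusted p = 0.0615). It was called (log2 fold change and adjusted p in brackets, here and below) with RLE size factors (0.087, 0.0318), DESeq2 (0.087, 0.0419) and each line fitted alone (0.077, 0.0401), and without CAL-27 control 2 (0.083, 0.0411), CAL-27 shTTK 1 (0.083, 0.043), CAL-27 shTTK 2 (0.077, 0.0479), CAL-27 shTTK 3 (0.083, 0.0377) or SCC-15 shTTK 3 (0.097, 0.0332). Subtracting the change in CAL-27 from that in SCC-15 gave -0.20 ± 0.045 (edgeR adjusted p = 0.00038).

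DDIT3, which encodes CHOP, a transcription factor linked to cell death under ER stress, rose in CAL-27. It was at 16.1, 20.3 and 19.6 CPM in control and 29.9, 26.7 and 25.96 CPM with shTTK, without overlap (0.56 ± 0.13, edgeR adjusted p = 0.00391). Its SCC-15 levels were 11.9, 8.09 and 6.57 and 8.51, 8.76 and 10.3 CPM, with overlap and no call (0.050 ± 0.17, edgeR adjusted p = 0.884). A difference between the lines was not called (-0.51 ± 0.22, edgeR adjusted p = 0.102); it was with every gene that had a read kept (-0.51, 0.00575), and without SCC-15 control 3 (-0.70, 0.000897). Over the fits that each left out 1 library, this difference ranged from -0.70 (without SCC-15 control 3) to -0.23 (without SCC-15 control 1), and the SCC-15 change ranged from -0.12 (without SCC-15 control 3) to 0.33 (without SCC-15 control 1). DDIT3 shares 27.2% of its exon bases with MARS on the opposite strand, and MARS held 52865 counts over all libraries against 3272 for DDIT3. The strand setting of the counting is not given in the sources used here, so the DDIT3 values are uncertain.

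Higher levels of CHAC1, TRIB3 and NUPR1 were called in SCC-15 and not in CAL-27. CHAC1, an enzyme that degrades glutathione, was at 4.80, 5.91 and 6.33 CPM in SCC-15 control and 11.5, 11.2 and 8.77 CPM with shTTK (0.88 ± 0.14, edgeR adjusted p = 7.41e-07), without overlap. In CAL-27 it was at 7.61, 7.62 and 9.54 and 9.79, 6.74 and 7.69 CPM, with overlap (-0.030 ± 0.14, edgeR adjusted p = 0.919). Subtracting the change in CAL-27 from that in SCC-15 gave 0.91 ± 0.20 (edgeR adjusted p = 0.000255).

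TRIB3, a pseudokinase that dampens the ATF4 response, was at 51.3, 48.03 and 47.9 CPM in SCC-15 control and 66.2, 66.2 and 59.9 CPM with shTTK (0.38 ± 0.054, edgeR adjusted p = 1.88e-08), without overlap. In CAL-27 it was at 61.7, 63.00 and 65.8 and 71.1, 65.1 and 72.05 CPM, with overlap and no call (0.13 ± 0.053, edgeR adjusted p = 0.0583). It was called there with every gene that had a read kept (0.15, 0.0364), a filter of 1 CPM in 3 libraries (0.14, 0.0423) and each line fitted alone (0.15, 0.0207), and without CAL-27 shTTK 2 (0.17, 0.0232), SCC-15 control 2 (0.15, 0.0297), SCC-15 control 3 (0.15, 0.0284), SCC-15 shTTK 1 (0.15, 0.022) or SCC-15 shTTK 2 (0.15, 0.0309). Between the lines its change differed by 0.26 ± 0.076 (edgeR adjusted p = 0.00703). NUPR1, a small stress-induced nuclear protein, was at 2.51, 2.81 and 3.17 CPM in SCC-15 control and 3.62, 4.61 and 5.42 CPM with shTTK (0.69 ± 0.19, edgeR adjusted p = 0.00427). That call was lost without SCC-15 shTTK 3 (0.54, 0.0584). In CAL-27 NUPR1 was at 6.29, 6.69 and 4.21 and 6.22, 5.38 and 6.77 CPM, and its difference between the lines was not called (0.60 ± 0.26, edgeR adjusted p = 0.0819), but was without CAL-27 control 3 (0.78, 0.02) or SCC-15 shTTK 1 (0.72, 0.0353).

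CEBPB and STC2 moved in opposite directions in the lines, without overlap in either. CEBPB, a bZIP factor that can pair with ATF4, fell in CAL-27 from 299, 321 and 314 CPM to 265, 254 and 243 CPM (-0.30 ± 0.034) and rose in SCC-15 from 155, 152 and 154 CPM to 199, 188 and 185 CPM (0.31 ± 0.036). STC2, a secreted glycoprotein, fell in CAL-27 from 139, 141 and 130.1 CPM to 117, 109 and 115 CPM (-0.27 ± 0.041) and rose in SCC-15 from 72.8, 79.9 and 78.3 CPM to 105, 103 and 104 CPM (0.43 ± 0.043). The largest edgeR adjusted p of these 4 changes was 1.27e-07. The lines differed by 0.61 ± 0.050 for CEBPB and 0.70 ± 0.060 for STC2 (edgeR adjusted p = 4.92e-17 and 2.52e-16). CEBPB shares 11.8% of its exon bases with the antisense gene CEBPB-AS1, which held 191 counts against 46673.

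PPP1R15A (GADD34), the phosphatase subunit that reverses eIF2 phosphorylation, was at 311, 348 and 297 CPM in CAL-27 control and 424, 391 and 379 CPM with shTTK, a rise without overlap (0.32 ± 0.053, edgeR adjusted p = 0.000259). Its SCC-15 levels were 117, 117 and 119 and 124, 114 and 113 CPM, with overlap (-0.011 ± 0.060, edgeR adjusted p = 0.933). The difference was -0.33 ± 0.080 (edgeR adjusted p = 0.00611). CEBPG, another bZIP partner of ATF4, was not called in either line (0.13 and 0.014 on the log2 scale). Of the 9 stress regulators and effectors, 3 rose and 2 fell in CAL-27 (median 0.13), and 5 rose and 0 fell in SCC-15 (median 0.31). In either direction, calls were made for 55.6% of these genes in CAL-27 and 55.6% in SCC-15, beside 27.3% and 27.7% of all genes tested.

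**Figure D3:**
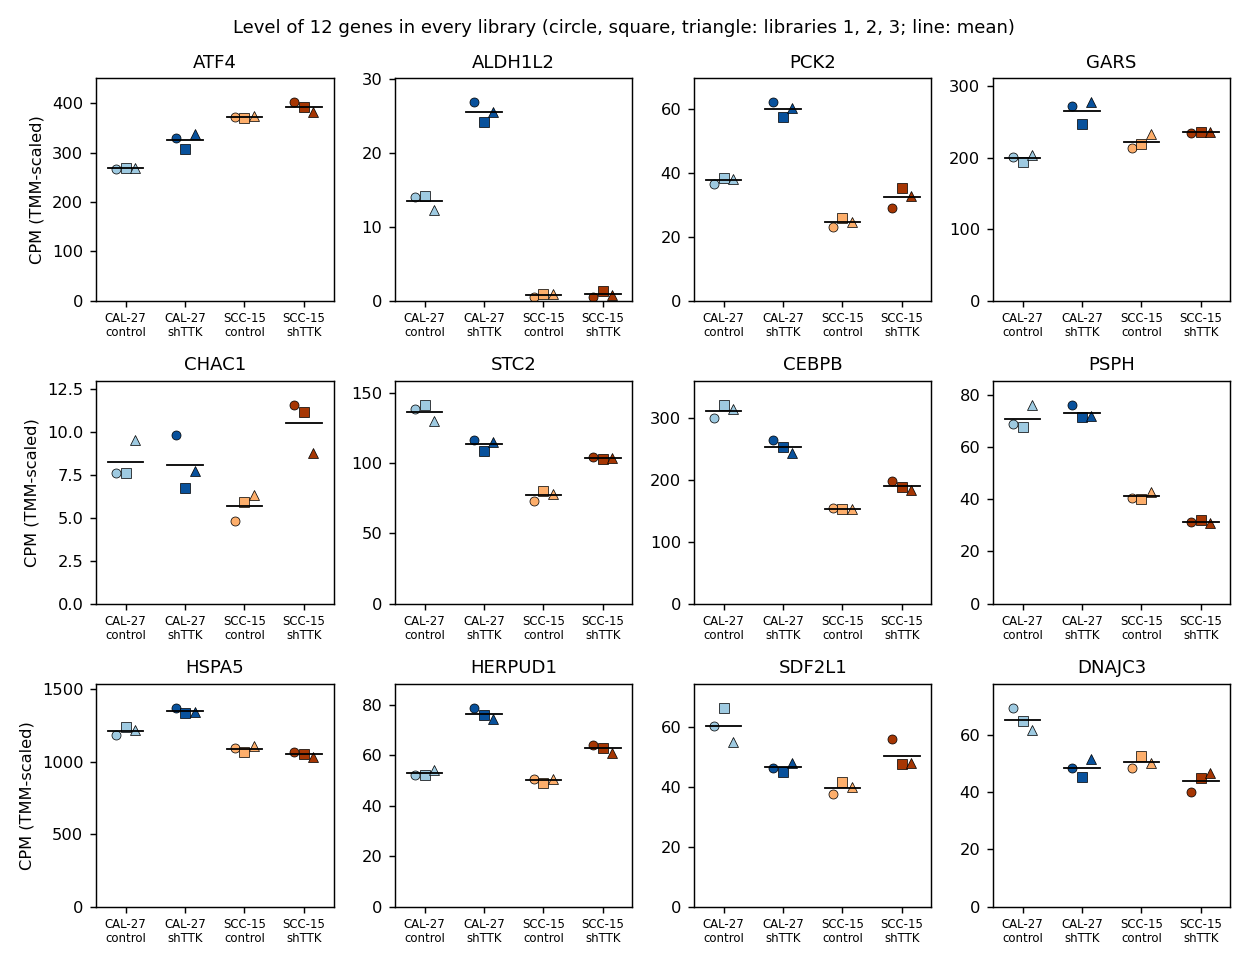
TMM-scaled CPM (y axis) of 12 genes in every library, by group (x axis); markers are the 3 libraries of a group and lines are group means. PCK2 and HERPUD1 are higher with shTTK in both lines without overlap, STC2, CEBPB and SDF2L1 are lower in CAL-27 and higher in SCC-15, and ALDH1L2 is far lower in SCC-15 than in CAL-27.

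Of the 8 enzymes of serine, one-carbon, asparagine and mitochondrial carbon metabolism, 5 rose and 0 fell in CAL-27 (median 0.18), and 2 rose and 3 fell in SCC-15 (median 0.12). The test called 62.5% of these genes in CAL-27 and 62.5% in SCC-15, beside 27.3% and 27.7% of all genes tested. ALDH1L2, the mitochondrial formyltetrahydrofolate dehydrogenase, had the largest called rise of the 41 genes in CAL-27. It was at 14.1, 14.1 and 12.3 CPM in control and 26.9, 24.2 and 25.5 CPM with shTTK, without overlap (0.91 ± 0.11, edgeR adjusted p = 1.93e-10). In SCC-15 it was low, at 0.457, 0.976 and 0.938 CPM in control and 0.467, 1.38 and 0.782 CPM with shTTK, with overlap (0.15 ± 0.33, edgeR adjusted p = 0.795). The difference between the lines was not called (-0.76 ± 0.35, edgeR adjusted p = 0.107), but was without SCC-15 control 1 (-1.03, 0.0308) or SCC-15 shTTK 2 (-1.25, 0.0129). Leaving out 1 library at a time, it ranged from -1.25 (without SCC-15 shTTK 2) to -0.48 (without SCC-15 shTTK 1), and the SCC-15 change ranged from -0.32 (without SCC-15 shTTK 2) to 0.45 (without SCC-15 shTTK 1). ALDH1L2 shares 1.70% of its exon bases with C12orf45 on the opposite strand, which held 3364 counts against 2052.

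PCK2, the mitochondrial phosphoenolpyruvate carboxykinase, rose in both lines without overlap. In CAL-27 it went from 36.6, 38.3 and 37.96 CPM to 62.01, 57.3 and 60.2 CPM (0.67 ± 0.063, edgeR adjusted p = 1.19e-14), and in SCC-15 from 22.97, 25.7 and 24.7 CPM to 28.9, 35.1 and 32.9 CPM (0.40 ± 0.071, edgeR adjusted p = 3.78e-06). Subtracting the change in CAL-27 from that in SCC-15 gave -0.27 ± 0.095 (edgeR adjusted p = 0.0283). This call was lost with DESeq2 (-0.26, 0.0607), and without CAL-27 control 1 (-0.24, 0.0746), CAL-27 shTTK 1 (-0.25, 0.0603), SCC-15 control 2 (-0.24, 0.0802) or SCC-15 shTTK 1 (-0.21, 0.107), and without both SCC-15 libraries numbered 1 (-0.23, 0.0842).

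The 3 enzymes of serine synthesis did not move as a block. PHGDH, which catalyses the first step, had a log2 fold change of 0.095 ± 0.037 in CAL-27 (edgeR adjusted p = 0.0472) and 0.16 ± 0.035 in SCC-15 (edgeR adjusted p = 0.000122). The CAL-27 call was lost with DESeq2 (0.096, 0.101) and limma-voom (0.095, 0.0948), and without CAL-27 control 1 (0.065, 0.29), CAL-27 control 3 (0.11, 0.0517), CAL-27 shTTK 2 (0.077, 0.196), CAL-27 shTTK 3 (0.10, 0.0591) or SCC-15 control 1 (0.091, 0.0616). PSAT1, the transaminase of the next step, was at 248, 244 and 255 CPM in CAL-27 control and 315, 281 and 293 CPM with shTTK, a rise without overlap (0.25 ± 0.036, edgeR adjusted p = 2.43e-08). In SCC-15 it was at 80.7, 82.98 and 86.96 CPM in control and 78.4, 74.9 and 75.4 CPM with shTTK, a fall without overlap (-0.13 ± 0.043, edgeR adjusted p = 0.0137). The SCC-15 call was lost with DESeq2 (-0.12, 0.0538), limma-voom (-0.13, 0.0578) and every gene that had a read kept (-0.12, 0.0625), and without SCC-15 control 3 (-0.098, 0.141) or SCC-15 shTTK 2 (-0.11, 0.0866).

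PSPH, the phosphatase of the last step, fell in SCC-15 from 40.5, 40.2 and 42.7 CPM to 31.3, 31.97 and 30.9 CPM without overlap (-0.39 ± 0.061, edgeR adjusted p = 2.65e-07). In CAL-27 it was at 68.6, 67.7 and 75.98 and 75.9, 71.5 and 71.9 CPM, with overlap and no call (0.047 ± 0.052). The lines differed by -0.44 ± 0.080 for PSPH and -0.38 ± 0.056 for PSAT1 (edgeR adjusted p = 1.04e-05 and 5.71e-08). The pseudogene PSPHP1 held counts equal to 7.27% of those of PSPH, so reads may be split between them.

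SHMT2, which cleaves serine to feed the mitochondrial folate pathway, was not called in CAL-27 (0.0018 ± 0.033) and fell in SCC-15 (-0.15 ± 0.033, edgeR adjusted p = 0.000217). The lines differed by -0.15 ± 0.046 (edgeR adjusted p = 0.0101), a call lost without SCC-15 shTTK 3 (-0.12, 0.0529). MTHFD2, the dehydrogenase that follows it, rose in CAL-27 (0.12 ± 0.038, edgeR adjusted p = 0.0121), a call lost without CAL-27 control 1 (0.10, 0.0848) or CAL-27 shTTK 3 (0.097, 0.0843). In SCC-15 MTHFD2 was not called (0.095 ± 0.039, edgeR adjusted p = 0.0638), but was with RLE size factors (0.10, 0.0372) and every gene that had a read kept (0.11, 0.0483), and without CAL-27 control 2 (0.10, 0.0476), CAL-27 shTTK 3 (0.10, 0.0413) or SCC-15 shTTK 1 (0.14, 0.00522), and without both SCC-15 libraries numbered 1 (0.14, 0.0203). MTHFD2 shares 27.2% of its exon bases with SLC4A5 on the opposite strand, which held 67 counts.

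ASNS, asparagine synthetase, is a classic ATF4 target but held only 460 counts over the 12 libraries. It shares 44.6% of its exon bases with the gene model AC079781.5 on the same strand, and whether reads in shared exons were counted was not tested. It was at 1.77, 1.59 and 1.36 CPM in CAL-27 control and 3.08, 2.31 and 1.66 CPM with shTTK, and at 2.63, 1.95 and 2.40 and 3.56, 1.56 and 2.96 CPM in SCC-15. Both pairs of groups overlapped and neither change was called (0.57 ± 0.28, edgeR adjusted p = 0.128, and 0.21 ± 0.26, edgeR adjusted p = 0.613). In CAL-27 it was called without CAL-27 shTTK 3 (0.79, 0.0454). With 1 library left out in turn, the CAL-27 change ranged from 0.35 (without CAL-27 shTTK 1) to 0.79 (without CAL-27 shTTK 3) and the SCC-15 change from -0.034 (without SCC-15 shTTK 1) to 0.49 (without SCC-15 shTTK 2).

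Of the 6 genes of tRNA charging and export, 5 rose in CAL-27, all of them aminoacyl-tRNA synthetases, which load amino acids onto tRNA, and none overlapped its controls (median of the group 0.28), beside 11.6% of all genes tested called higher and 17.1% higher without overlap. GARS, the glycyl-tRNA synthetase, went from 202, 194 and 204 CPM to 272, 247 and 278 CPM (0.41 ± 0.036, edgeR adjusted p = 2.7e-15). AARS, the alanyl-tRNA synthetase, went from 273, 287 and 276 CPM to 372, 359 and 374 CPM (0.40 ± 0.032, edgeR adjusted p = 9.26e-18). CARS rose by 0.31, MARS by 0.25 and NARS by 0.15 on the log2 scale, and XPOT, the tRNA exporter, was not called (0.059).

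In SCC-15 3 of these genes rose and 1 fell (median 0.12), beside 13.4% of all genes tested called higher and 14.3% lower. AARS went from 366, 386 and 386 CPM to 437, 419.9 and 409 CPM (0.15 ± 0.032, edgeR adjusted p = 7.42e-05), CARS rose by 0.17 and NARS by 0.18 on the log2 scale, and MARS was not called (-0.063). GARS was at 214, 219 and 234 CPM in control and 235, 236 and 236 CPM with shTTK, without overlap but not called (0.084 ± 0.036, edgeR adjusted p = 0.0753). It was called with RLE size factors (0.094, 0.0423) and each line fitted alone (0.084, 0.0495), and without CAL-27 control 2 (0.091, 0.0496) or SCC-15 control 3 (0.13, 0.0131). XPOT fell from 262, 261 and 259 CPM to 241, 230.0 and 233 CPM without overlap (-0.15 ± 0.033, edgeR adjusted p = 0.000148).

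The change in SCC-15 was lower than that in CAL-27 for GARS (-0.33 ± 0.051), MARS (-0.31 ± 0.047), AARS (-0.25 ± 0.045) and XPOT (-0.21 ± 0.048), with a largest edgeR adjusted p of 0.000331. For CARS it was -0.15 ± 0.057 without a call (edgeR adjusted p = 0.0517), which was made with a filter of 1 CPM in 3 libraries (-0.15, 0.0377), and without CAL-27 control 3 (-0.18, 0.0157), CAL-27 shTTK 3 (-0.17, 0.0296), SCC-15 control 2 (-0.18, 0.0236), SCC-15 control 3 (-0.16, 0.0469) or SCC-15 shTTK 1 (-0.17, 0.0224).

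Of the 10 ER chaperones and foldases, 3 rose and 6 fell in CAL-27 (median -0.18), and 2 rose and 2 fell in SCC-15 (median 0.043). Called in either direction were 90.0% of these genes in CAL-27 and 40.0% in SCC-15, beside 27.3% and 27.7% of all genes tested. HSPA5, the ER HSP70 chaperone BiP that holds the sensors inactive, was at 1184, 1239 and 1215 CPM in CAL-27 control and 1369, 1336 and 1339.6 CPM with shTTK, without overlap (0.15 ± 0.028, edgeR adjusted p = 7.93e-06). Its SCC-15 levels were 1095, 1063 and 1105 and 1068, 1051 and 1034 CPM, with overlap and no call (-0.050 ± 0.028, edgeR adjusted p = 0.192). The lines differed by -0.20 ± 0.039 (edgeR adjusted p = 3.04e-05).

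HSP90B1, the ER HSP90 chaperone GRP94, rose slightly in CAL-27 (0.090 ± 0.028, edgeR adjusted p = 0.0112) and fell slightly in SCC-15 (-0.079 ± 0.028, edgeR adjusted p = 0.0264). The CAL-27 call was lost without CAL-27 control 1 (0.068, 0.119). The SCC-15 call was lost with RLE size factors (-0.069, 0.0571) and every gene that had a read kept (-0.063, 0.25), and without SCC-15 control 1 (-0.075, 0.076), SCC-15 control 2 (-0.077, 0.0778), SCC-15 control 3 (-0.073, 0.0951), SCC-15 shTTK 1 (-0.069, 0.0704) or SCC-15 shTTK 2 (-0.068, 0.136), and without both SCC-15 libraries numbered 1 (-0.069, 0.104). DNAJB9, an ER co-chaperone of the HSP40 family, rose in CAL-27 (0.33 ± 0.11, edgeR adjusted p = 0.0169), a call lost without CAL-27 control 3 (0.28, 0.0967), and was not called in SCC-15 (0.13 ± 0.13). DNAJB9 held 2097 counts and shares 6.45% of its exon bases with THAP5 and 3.49% with PNPLA8, both on the opposite strand, which held 4211 and 6225 counts.

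SDF2L1, a partner of BiP, fell in CAL-27 from 60.4, 66.5 and 55.1 CPM to 46.4, 45.1 and 48.2 CPM (-0.38 ± 0.062, edgeR adjusted p = 8.93e-07). In SCC-15 it rose from 37.6, 41.6 and 39.9 CPM to 55.98, 47.8 and 48.00 CPM (0.35 ± 0.064, edgeR adjusted p = 1.09e-05). The groups were separate in both lines, in opposite order, and the difference of 0.73 ± 0.089 was the largest called in the ER arm (edgeR adjusted p = 6.72e-10).

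DNAJC3, an ER co-chaperone also called p58IPK, fell in CAL-27 from 69.4, 64.8 and 61.7 CPM to 48.4, 45.4 and 51.7 CPM (-0.43 ± 0.058, edgeR adjusted p = 5.21e-09), the largest called fall of the 41 genes there. In SCC-15 it was at 48.5, 52.5 and 50.3 CPM in control and 40.1, 44.8 and 46.7 CPM with shTTK, a fall without overlap (-0.20 ± 0.060, edgeR adjusted p = 0.00715). The SCC-15 call was lost without SCC-15 control 2 (-0.16, 0.0698) or SCC-15 shTTK 1 (-0.13, 0.119), and without both SCC-15 libraries numbered 1 (-0.17, 0.0787). The difference between the lines was 0.23 ± 0.084 (edgeR adjusted p = 0.0326), and its call was lost with DESeq2 (0.24, 0.0566) and limma-voom (0.23, 0.0546), and without CAL-27 control 1 (0.19, 0.116), CAL-27 control 2 (0.23, 0.0571), CAL-27 shTTK 1 (0.22, 0.0742), CAL-27 shTTK 2 (0.19, 0.123), SCC-15 control 1 (0.21, 0.0851), SCC-15 control 3 (0.21, 0.0754), SCC-15 shTTK 2 (0.20, 0.0986) or SCC-15 shTTK 3 (0.19, 0.118).

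The protein disulfide isomerases PDIA6 and PDIA4 fell in CAL-27 by 0.24 and by 0.19 on the log2 scale. CRELD2, an ER folding factor, fell by 0.25, and DNAJB11, a co-chaperone of BiP, fell by 0.17. In SCC-15 PDIA6 rose by 0.19, and PDIA4 (0.0098), CRELD2 (0.077) and DNAJB11 (-0.083) were not called. The difference between the lines was called for PDIA6 (0.43 ± 0.048), CRELD2 (0.33 ± 0.088) and PDIA4 (0.20 ± 0.043), and the CRELD2 call was lost without both SCC-15 libraries numbered 1 (0.23, 0.0675). PDIA6 shares 25.2% of its exon bases with ATP6V1C2 on the opposite strand, which held 1312 counts against 51082. MANF, a secreted ER stress protein, was not called in either line (-0.10 and 0.13).

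Among the genes of ER-associated degradation, HERPUD1, a membrane protein of the degradation complex whose promoter is shown above with letters of both kinds, rose in both lines without overlap. In CAL-27 it went from 52.2, 51.9 and 54.1 CPM to 78.6, 75.9 and 74.4 CPM (0.53 ± 0.051, edgeR adjusted p = 2.34e-14), and in SCC-15 from 50.7, 49.1 and 50.7 CPM to 64.1, 62.96 and 60.9 CPM (0.32 ± 0.052, edgeR adjusted p = 6.34e-07). The difference between the lines was -0.21 ± 0.073 (edgeR adjusted p = 0.022), a call lost without CAL-27 control 1 (-0.20, 0.0515), SCC-15 control 1 (-0.20, 0.0523) or SCC-15 shTTK 3 (-0.19, 0.0661).

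SYVN1, the ubiquitin ligase HRD1, rose by 0.13 in CAL-27 and by 0.20 in SCC-15 on the log2 scale, and shares 7.24% of its exon bases with FAU on the same strand, which held 77663 counts against 20852 for SYVN1. It shares a further 6.48% with MRPL49 on the opposite strand, which held 24596, so the SYVN1 values are uncertain. EDEM1, which hands misfolded glycoproteins to degradation, fell in SCC-15 from 77.8, 72.6 and 81.04 CPM to 57.2, 58.6 and 66.5 CPM (-0.34 ± 0.053, edgeR adjusted p = 2.68e-07). In CAL-27 it was at 65.6, 60.3 and 62.2 and 54.3, 60.03 and 58.9 CPM and was not called (-0.12 ± 0.055, edgeR adjusted p = 0.111), although the groups did not overlap in either line. The difference was -0.23 ± 0.077 (edgeR adjusted p = 0.0211), a call lost with DESeq2 (-0.22, 0.0622), and without CAL-27 control 2 (-0.21, 0.0529), CAL-27 shTTK 2 (-0.19, 0.0782), SCC-15 control 3 (-0.20, 0.0599), SCC-15 shTTK 1 (-0.20, 0.0542) or SCC-15 shTTK 2 (-0.21, 0.0533), and without both SCC-15 libraries numbered 1 (-0.17, 0.137). SEL1L, the partner of HRD1, fell slightly in CAL-27 (-0.099 ± 0.036, edgeR adjusted p = 0.0326) and was not called in SCC-15 (-0.085). Its CAL-27 call was lost with DESeq2 (-0.098, 0.0512), every gene that had a read kept (-0.080, 0.231) and each line fitted alone (-0.079, 0.0823), and without CAL-27 control 1 (-0.087, 0.126), CAL-27 control 2 (-0.097, 0.08), CAL-27 shTTK 1 (-0.087, 0.126), CAL-27 shTTK 2 (-0.096, 0.0848), CAL-27 shTTK 3 (-0.079, 0.168), SCC-15 control 2 (-0.080, 0.108), SCC-15 control 3 (-0.080, 0.108), SCC-15 shTTK 1 (-0.080, 0.071) or SCC-15 shTTK 2 (-0.080, 0.109).

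XBP1, the transcription factor activated by IRE1 splicing, rose in both lines. In CAL-27 it was at 110.4, 105 and 115 CPM in control and 125, 115 and 127 CPM with shTTK, with overlap (0.15 ± 0.045, edgeR adjusted p = 0.00628). In SCC-15 it went from 62.1, 54.1 and 56.9 CPM to 75.98, 72.2 and 72.2 CPM without overlap (0.35 ± 0.050, edgeR adjusted p = 3.12e-08). The difference was 0.20 ± 0.067 (edgeR adjusted p = 0.0214), a call lost without CAL-27 control 3 (0.17, 0.0722), CAL-27 shTTK 2 (0.16, 0.0902), SCC-15 control 2 (0.14, 0.157), SCC-15 control 3 (0.17, 0.0734) or SCC-15 shTTK 1 (0.16, 0.0845). The sensors were not called in either line: ATF6 had log2 fold changes of -0.012 in CAL-27 and -0.10 in SCC-15, ERN1 of -0.10 and 0.21, and EIF2AK3 of 0.13 and 0.054.

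Across the lines, 5 ATF4-arm genes rose in both (PHGDH, PCK2, AARS, CARS and NARS), and in the ER arm 3 rose in both (HERPUD1, SYVN1 and XBP1) and 1 fell in both (DNAJC3), beside 2.87% of all genes tested called higher in both lines and 4.01% lower in both. Calls of opposite sign were made for PSAT1, CEBPB and STC2 in the ATF4 arm and for HSP90B1, PDIA6 and SDF2L1 in the ER arm, beside 4.81% of all genes tested. Some of the calls behind these counts were lost under other settings or with libraries left out, as given above. They were those of PHGDH in CAL-27, of PSAT1 and DNAJC3 in SCC-15, and of HSP90B1 in each line. The SYVN1 values were uncertain. The test of the change in SCC-15 less that in CAL-27 called 4 genes higher and 10 lower in the ATF4 arm and 6 higher and 4 lower in the ER arm, beside 13.3% and 12.1% of all genes tested (25.4% in either direction). The median difference was -0.20 in the ATF4 arm and 0.077 in the ER arm, the latter 0.048 without CAL-27 shTTK library 1, beside 0.0015 over all genes tested. This test uses the same libraries as the changes within each line.

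The control libraries of the lines differed in most of these genes. In the ATF4 arm 8 were higher and 14 lower in SCC-15 than in CAL-27, and in the ER arm 4 were higher and 13 lower, beside 37.8% and 38.2% of all genes tested (76.0% in either direction). The medians were -0.37 and -0.56, beside -0.011 over all genes tested. All 6 tRNA genes were higher in SCC-15, with log2 differences from 0.092 (NARS) to 0.57 (XPOT). The NARS call was lost with RLE size factors (0.076, 0.0697), DESeq2 (0.076, 0.109) and every gene that had a read kept (0.086, 0.0815). It was also lost without CAL-27 control 1 (0.067, 0.162), CAL-27 control 2 (0.084, 0.08), SCC-15 control 1 (0.083, 0.089) or SCC-15 control 3 (0.092, 0.0563), and without both SCC-15 libraries numbered 1 (0.086, 0.0598). GARS was higher by 0.15, PHGDH by 0.67 and ATF4 by 0.47.

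The control differences farthest from 0 were lower levels in SCC-15. ALDH1L2 had a log2 difference of -4.09 ± 0.19, ERN1 of -2.16 ± 0.093, PSAT1 of -1.58 ± 0.039, SYVN1 of -1.46 ± 0.044 and PPP1R15A of -1.44 ± 0.057, with a largest edgeR adjusted p of 8.87e-13. ERN1 was at 37.4, 40.8 and 33.5 CPM in CAL-27 control and 9.43, 7.52 and 8.03 CPM in SCC-15 control libraries. HERPUD1 (-0.071 ± 0.053) and ASNS (0.56 ± 0.28) were not called, and ASNS was without SCC-15 control 2 (0.67, 0.0403) or SCC-15 shTTK 2 (0.56, 0.0495). HSP90B1 was called with a small difference (0.064 ± 0.028) that was lost with RLE size factors (0.049, 0.113), DESeq2 (0.049, 0.0582) and every gene that had a read kept (0.058, 0.155). It was also lost without CAL-27 control 1 (0.046, 0.19), CAL-27 control 3 (0.066, 0.0615), CAL-27 shTTK 1 (0.060, 0.0512), SCC-15 control 1 (0.062, 0.0711), SCC-15 control 2 (0.068, 0.0552) or SCC-15 control 3 (0.064, 0.0708).

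Between genes, levels were compared per length, as CPM per kb of exon in the control libraries (mean ± SD, n = 3). The length joined all exons annotated for a gene, from 1956 bases for CEBPB to 9217 for PHGDH, for example. It can exceed the length of the transcript present, so the order of genes depends on the annotation. HSPA5 was highest in both lines, at 310.3 ± 7.11 in CAL-27 and 278 ± 5.56 in SCC-15, followed by HSP90B1 at 173 ± 3.46 and 181 ± 1.18. In CAL-27 the next were CEBPB (159 ± 5.65), PDIA4 (150.2 ± 1.36), PSAT1 (114 ± 2.44), ATF4 (107 ± 0.518) and PPP1R15A (103 ± 8.54), and the last pair did not differ beyond their spread. In SCC-15 the next were ATF4 (148 ± 0.639), PDIA4 (103 ± 1.65), AARS (84.3 ± 2.50) and CEBPB (78.5 ± 0.597). ASNS was lowest in CAL-27 (0.354 ± 0.0462) and ALDH1L2 lowest in SCC-15 (0.0929 ± 0.0340). As ASNS shares 44.6% of its exon bases with another gene model on the same strand, it may be undercounted, so its rank is uncertain.

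**Figure D4:**
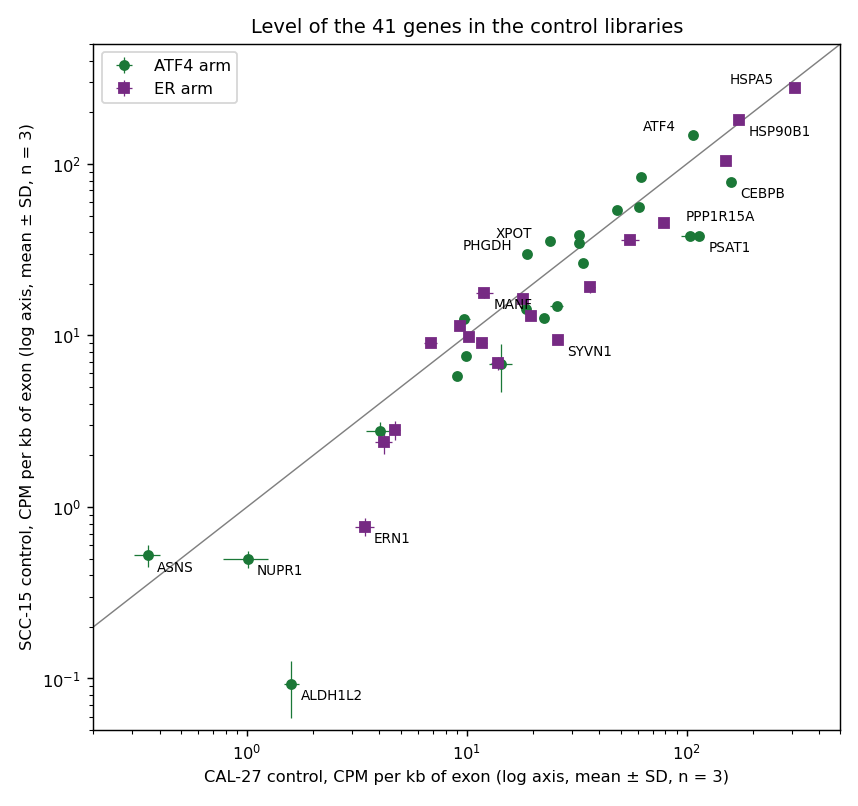
CPM per kb of exon of each of the 41 genes in the CAL-27 (x axis) and SCC-15 (y axis) control libraries, on log axes, as mean ± SD of 3 libraries; the grey line marks equal levels. HSPA5 and HSP90B1 lie at the top near the line, and ALDH1L2, ERN1, PSAT1, SYVN1 and PPP1R15A lie below it.

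Other genes of these pathways were taken from lists by function. Of 26 other ATF4-responsive genes tested, 14 rose and 5 fell in CAL-27 (median 0.21), and 9 rose and 7 fell in SCC-15 (median 0.0039). Calls in either direction covered 73.1% of these genes in CAL-27 and 61.5% in SCC-15, beside 27.3% and 27.7% of all genes tested. In CAL-27 SLC7A5 and SLC3A2, the chains of an amino acid transporter, rose by 0.59 and 0.43 on the log2 scale. VEGFA, a growth factor for vessels, fell by 0.65 and GDF15, a stress cytokine, fell by 0.72. In SCC-15 the glutamine transporter SLC1A5 rose by 0.31 and VEGFA by 0.28, while TXNIP, which inhibits thioredoxin, fell by 1.63 and the glycine transporter SLC6A9 fell by 0.58. Some of these genes went the other way in the other line, given here as ranges over fits without 1 library. In SCC-15 SLC7A5 changed by -0.14 to -0.12 and SLC3A2 by -0.18 to -0.14. In CAL-27 TXNIP changed by 0.55 to 0.65 and SLC6A9 by 0.39 to 0.51. SLC1A5 in CAL-27 (0.27 to 0.32) and GDF15 in SCC-15 (-0.18 to -0.11) kept their direction. Of 15 other cytosolic aminoacyl-tRNA synthetases, 6 rose and 2 fell in CAL-27, and 7 rose and 0 fell in SCC-15, so that calls covered 53.3% of these genes in CAL-27 and 46.7% in SCC-15, beside 27.3% and 27.7% of all genes tested. SARS rose by 0.32 and 0.31, LARS by 0.26 in CAL-27 and WARS by 0.21 in SCC-15. VARS fell by 0.26 and FARSA fell by 0.20 in CAL-27.

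Of 38 other ER folding, degradation and secretory genes tested, 1 rose and 13 fell in CAL-27 (median -0.11), and 6 rose and 7 fell in SCC-15 (median 0.0034). The calls were 36.8% of these genes in CAL-27 and 34.2% in SCC-15, beside 27.3% and 27.7% of all genes tested, so the SCC-15 count was near the background. In CAL-27 SEC61A1, the channel of the ER translocon, fell by 0.39 and VCP, the ATPase that extracts proteins from the ER, fell by 0.22 on the log2 scale. ERP44, a thiol chaperone, rose by 0.14, a call lost without CAL-27 control 1 (0.11, 0.118) or CAL-27 shTTK 2 (0.12, 0.0977). In SCC-15 the lectin chaperone CANX rose by 0.18 and the HSP40 DNAJB2 by 0.33, while SEL1L3 fell by 0.78 and the signal peptidase subunit SPCS3 fell by 0.19. Of 18 genes of other sensors and the eIF2 machinery, 0 rose and 5 fell in CAL-27, and 4 rose and 5 fell in SCC-15. These calls were 27.8% of these genes in CAL-27 and 50% in SCC-15, beside 27.3% and 27.7% of all genes tested. The CAL-27 share was at the background in either direction, but all its calls were lower. By direction, 27.8% of these genes were called lower and 0% higher in CAL-27, beside 15.7% and 11.6% of all genes tested. EIF2S1, the alpha subunit of eIF2, fell by 0.18 and TRAF2 fell by 0.24 in CAL-27. In SCC-15 EIF2S2, the beta subunit, fell by 0.34 and MBTPS2, the site-2 protease that cleaves ATF6, fell by 0.61. MAP3K5, a stress kinase, rose by 0.42 and ATF6B by 0.12, the latter call lost without SCC-15 shTTK 1 (0.10, 0.0535) or both SCC-15 libraries numbered 1 (0.092, 0.143).

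Of 15 other folate and one-carbon enzymes tested, 2 rose and 4 fell in CAL-27, and 5 rose and 0 fell in SCC-15. Calls in either direction took 40.0% of these genes in CAL-27 and 33.3% in SCC-15, beside 27.3% and 27.7% of all genes tested. The SCC-15 share was near the background in either direction, but all its calls were higher. By direction, 33.3% of these genes were called higher and 0% lower in SCC-15, beside 13.4% and 14.3% of all genes tested. SHMT1, the cytosolic counterpart of SHMT2, fell by 0.20 in CAL-27 on the log2 scale and rose by 0.29 in SCC-15. ALDH1L1, the cytosolic relative of ALDH1L2, rose by 0.50 in CAL-27, where it was at 10.8 ± 1.04 CPM in control and 15.3 ± 0.972 CPM with shTTK (SD, n = 3). MTHFD1 rose by 0.12 in CAL-27, and TYMS, thymidylate synthase, rose by 0.25 in SCC-15.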

How the data were processed

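The authors deposited raw, whole-number counts for each gene, from paired reads of dUTP-stranded poly(A) libraries, per the labels. The submitters' processing notes name Trim Galore 0.6.6, STAR 2.7.7a, featureCounts 2.0.1 and hg38; annotation and strand setting are not given in these sources. The symbols of 58708 of 58735 lines are in GENCODE 29 (GRCh38), which gave positions, exon lengths and exon overlaps, and 1568 lines repeat a symbol, none of them a member. Counts were fitted with edgeR 4.0.16 in R 4.3.3 (TMM factors, filterByExpr, robust quasi-likelihood, 4 group means over 12 libraries), and p-values were adjusted by Benjamini-Hochberg over 16946 genes. The arm level used log2(CPM + 0.5). Simulated counts in 16663 genes held 106 genes changed by 0.5 and 94 by 1.0 on the log2 scale in each line, far fewer than were called in the data. At 0.5 the fit recovered 55.7% in the CAL-27 comparison and 64.2% in the SCC-15 comparison, and at 1.0 77.7% and 72.3%. Of its calls 5.71% and 4.23% were false. As so few genes were changed, these shares may not hold for the data. DESeq2 1.42.0, limma-voom 3.58.1, RLE size factors, other filters, each line alone, a replicate block and leaving out libraries were alternatives. Members, gene lists and tests were chosen with earlier results of these data known. Values per library are given for ATF4, DDIT3, ASNS, PSAT1, TRIB3, HSPA5, HERPUD1 and XBP1 and for the 4 largest called changes or differences per direction; those of AARS and ERN1 were added after values were seen. Of the other lists, up to 2 genes with the smallest adjusted p are named in each line and direction. A gene of these lists and some promoters are not reported here. Promoters came from RefSeq on GRCh38.p14, without the 50 bases after each start.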

Additional observations from a re-analysis of the deposited data

Results flagged for a closer look

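The log2 change with shTTK differed between SCC-15 and CAL-27, by edgeR's test of the difference itself, for 24 of the 41 genes. In the ATF4 arm the change in SCC-15 less that in CAL-27 was positive for CEBPB (0.61), TRIB3 (0.26), CHAC1 (0.91) and STC2 (0.70). It was negative for ATF4 (-0.20), PPP1R15A (-0.33), PSAT1 (-0.38), PSPH (-0.44), SHMT2 (-0.15), PCK2 (-0.27), XPOT (-0.21), AARS (-0.25), GARS (-0.33) and MARS (-0.31). In the ER arm it was positive for DNAJC3 (0.23), PDIA4 (0.20), PDIA6 (0.43), CRELD2 (0.33), SDF2L1 (0.73) and XBP1 (0.20). It was negative for HSPA5 (-0.20), HSP90B1 (-0.17), HERPUD1 (-0.21) and EDEM1 (-0.23). Beside these, 25.4% of all genes tested were called. Not all of these calls were firm. Those of SHMT2, PCK2, DNAJC3, CRELD2, XBP1, HERPUD1 and EDEM1 were lost under some other settings or with libraries left out, as given above. The summed squamous markers, of which KRT5 gave the largest part, were higher with shTTK in CAL-27 and lower in SCC-15, but not all of them followed the sum. KRT17 went from 243 to 619 CPM in CAL-27 and from 1251 to 1395 CPM in SCC-15, and CDH1 from 451 to 418 CPM and from 24.1 to 40.5 CPM (group means). TTK itself also fell by unlike amounts, so the knockdown was not equal in the lines. Over fits without 1 library, its change in SCC-15 less that in CAL-27 was -0.77 to -0.61. The part of these markers and of the unequal knockdown in the differences was not tested.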

How the results depend on the processing

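Same-numbered control and shTTK libraries had correlations of their deviations from the group means between -0.02 and 0.034. Differently numbered libraries had correlations between -0.025 and 0.03. This measure showed no pairing by replicate number, but cannot tell whether a number marks a shared culture or day. A fit with the replicate number as a block left the ATF4-arm median at 0.15 in CAL-27 and 0.14 in SCC-15 and the ER-arm median at -0.098 and 0.067. It changed no member's call in the knockdown comparisons or their difference. In the control comparison the block fit compared the fitted levels of the control libraries numbered 1, not the group means. GARS, NARS and HSP90B1 were not called there, which cannot show whether their calls between the group means depend on a block. The ATF4-arm median in SCC-15 was 0.093 with limma-voom, 0.17 with every gene that had a read, and 0.14 without both SCC-15 libraries numbered 1, a choice made after seeing the data. Without those libraries the ER-arm median in SCC-15 was 0.0044 and 1 ER-arm gene was called lower; the cause was not tested. Leaving out each library in turn, the ATF4-arm median ranged over 0.15 to 0.23 in CAL-27 and 0.091 to 0.16 in SCC-15. The ER-arm median ranged over -0.12 to -0.054 in CAL-27, 0.025 to 0.11 in SCC-15 and 0.048 to 0.094 for the difference, and 1 to 3 ER-arm genes were called lower in SCC-15. No named gene's called change reversed in sign: over the named genes and comparisons, 2107 values under other settings kept their side of the threshold, 34 lost a call and 18 gained one, and without 1 library 3333 kept it, 82 lost a call and 41 gained one. RLE size factors moved the median of all genes by between -0.0158 and 0.0099 on the log2 scale over the 4 comparisons. ASNS, NUPR1, and ALDH1L2 in SCC-15 were limited by low counts.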
